A study of Mus musculus with 12 samples.

Results

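The anaphase-promoting complex or cyclosome (APC/C) is the ubiquitin ligase of mitosis and G1, and the genes described here encode its 2 coactivators, Cdc20 and Fzr1, and 8 of its core subunits, Anapc1, Anapc2, Anapc4, Anapc11, Cdc16, Cdc23, Cdc26 and Cdc27. They were chosen by name, as 10 of the 54532 genes of the deposited table. All 10 passed the filter on low counts, which left 15122 genes for testing. The RNA came from C2C12, a line of mouse myoblasts that leave the cell cycle and fuse into myotubes when serum is withdrawn. Cells received 30 nM of siRNA for 48 h, in 4 groups named siCONTROL (a control siRNA), siKEAP1 (targeting Keap1), siCCNF (targeting Ccnf) and siKEAP1/siCCNF (both targets depleted in the same cells), with 3 libraries of poly(A) RNA per group. The cells were grown in serum. The labels give no separate genotype or agent for any group, and all 12 libraries share the line and the transfection. The sequencing was done to ask whether cyclin F acts on muscle formation by way of NRF2. The replicates are called biological, and no label ties them to separate batches of cells.

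As background, the APC/C attaches ubiquitin to proteins that must disappear for cells to leave mitosis and to stay in G1. Cdc20 is the coactivator that brings substrates such as cyclin B and securin to the complex at anaphase, and it is the protein that the spindle checkpoint holds back. Fzr1, also called CDH1, takes over late in mitosis and in G1, and it directs the removal of Cdc20 itself. Cyclin F, the product of Ccnf, is the substrate receptor of another ubiquitin ligase, SCF, and CDH1 is among the proteins reported to bind it. KEAP1 is the receptor through which CUL3 ligases keep the transcription factor NRF2 low. In cycling cells Cdc20 mRNA rises in G2 and mitosis, while mRNAs of most core subunits vary little over the cycle.

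Promoter sequences are given for Cdc20, Fzr1 and Cdc27, the members on which the results below turn. Each is 250 bases before and 50 bases after the start site in RefSeq (GRCm38.p6), written 5′ to 3′ on the strand of the gene, with letters of the searched motifs in capitals. The Cdc20 promoter lies at chr4:118437294-118437593, the Fzr1 promoter at chr10:81378321-81378620 and the Cdc27 promoter at chr11:104550571-104550870, all on the minus strand.
Cdc20 promoter: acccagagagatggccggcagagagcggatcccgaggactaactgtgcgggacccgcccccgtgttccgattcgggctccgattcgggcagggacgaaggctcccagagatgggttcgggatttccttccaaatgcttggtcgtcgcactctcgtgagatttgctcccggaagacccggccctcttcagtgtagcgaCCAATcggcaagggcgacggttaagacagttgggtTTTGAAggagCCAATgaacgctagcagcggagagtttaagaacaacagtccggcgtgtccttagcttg
Fzr1 promoter: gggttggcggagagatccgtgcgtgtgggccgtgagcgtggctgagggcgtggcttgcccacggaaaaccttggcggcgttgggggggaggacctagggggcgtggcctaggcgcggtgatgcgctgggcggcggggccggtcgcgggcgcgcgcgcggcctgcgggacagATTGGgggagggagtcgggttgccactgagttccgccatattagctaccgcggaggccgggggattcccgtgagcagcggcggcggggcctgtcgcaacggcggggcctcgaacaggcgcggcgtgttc
Cdc27 promoter: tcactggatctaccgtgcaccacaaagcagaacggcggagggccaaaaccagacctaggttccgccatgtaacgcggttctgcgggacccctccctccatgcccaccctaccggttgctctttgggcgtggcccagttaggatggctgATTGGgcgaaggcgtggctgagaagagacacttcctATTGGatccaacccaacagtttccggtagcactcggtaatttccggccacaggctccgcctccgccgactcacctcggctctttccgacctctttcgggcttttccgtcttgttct
The capitals mark the cell cycle genes homology region (CHR, searched as TTTGAA) and the CCAAT box (CCAAT, or ATTGG where it lies on the other strand). Both strands were searched and no matches overlap. In the Cdc20 promoter a CHR begins 18 bases before the start site, between CCAAT boxes that begin at 53 and 8 bases before it. The Fzr1 promoter holds 1 CCAAT box and that of Cdc27 holds 2, all on the strand opposite to the gene, and neither holds the CHR letters. Of the 9 members with a promoter in the RefSeq table, Cdc20 alone held the CHR, against 17.9% of all 32851 promoters of this length. CCAAT stood in the promoters of 4 of the 9 (Cdc20, Fzr1, Cdc27 and Anapc11), against 37.4% of all promoters. The E2F core GCGGGAA was present in Anapc11 among the 9 and in 4.60% of all promoters, and its second form GCGCGAA in 0 of the 9 and in 1.59% of all. The core of the antioxidant response element (TGACNNNGC), which NRF2 binds, was present in Anapc11 among the 9 and in 12.4% of all. A match of letters is a description of the window and does not show that a factor binds there.

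The depth of the libraries and the depleted genes were examined first. Counts assigned to genes ranged from 18464209 to 22231732 in siCONTROL libraries, from 21346088 to 24601929 after siKEAP1, from 26039296 to 37743198 after siCCNF and from 22825576 to 32216830 after siKEAP1/siCCNF, so that every siCCNF library was deeper than every siCONTROL library. Keap1 was at 90.0, 89.0 and 84.3 CPM, which is the count of a gene relative to the scaled total of its library, in siCONTROL, 12.3, 12.8 and 12.7 after siKEAP1, 86.5, 88.6 and 80.3 after siCCNF and 22.2, 27.0 and 23.1 after both. Ccnf was at 85.5, 80.1 and 77.7 CPM in siCONTROL, 56.8, 64.9 and 56.4 after siKEAP1, 19.7, 20.5 and 21.3 after siCCNF and 23.7, 24.2 and 25.6 after both. Each depleted gene was thus lower in all 6 libraries labelled with its siRNA than in the other 6, and Ccnf was also lower after siKEAP1 than in siCONTROL (log2 fold change -0.45, adjusted p = 0.00026 by edgeR). In 2 libraries, siCONTROL replicate 1 and siKEAP1/siCCNF replicate 3, the deviation of genes from their group mean went with gene length (Pearson r across 15122 genes -0.31 and -0.28, against -0.094 to 0.21 in the other 10). Short genes read higher in these 2 libraries, and results that rest on them are given below with and without them.

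The identity of the cells was checked by marker genes. All 6 myoblast markers (Myod1, Myf5, Des, Itga7, Cdh15 and Vim) were detected, with a summed level of 4687 to 5134 CPM in siCONTROL, 3860 to 4037 after siKEAP1, 2785 to 2881 after siCCNF and 2744 to 2983 after both. Most of this sum came from Vim (mean 3474 CPM in siCONTROL), which hides larger falls of single markers. After siKEAP1 the 6 markers, in the order named, were at 30.2, 48.3, 68.3, 75.5, 30.5 and 90.2% of the control mean. After siCCNF they were at 33.4, 34.2, 49.8, 36.9, 32.2 and 64.9%. After both siRNAs they were at 35.3, 32.05, 51.3, 37.9, 27.8 and 64.7%. The 7 markers of differentiating muscle, among them Myog, summed to 51.2 to 118 CPM in siCONTROL, 1.95 to 2.39 after siKEAP1, 14.0 to 20.0 after siCCNF and 5.45 to 6.47 after both. Markers of other cell types were low. The defining genes Ptprc (leukocytes), Kdr (endothelium) and Epcam (epithelium) reached at most 0.12, 0.093 and 0.132 CPM in a library. The 3 leukocyte markers summed to 0.67 to 1.36 CPM in siCONTROL, 5.39 to 10.1 after siKEAP1, 1.51 to 3.03 after siCCNF and 2.18 to 3.52 after both, nearly all of it from Cd68, which rose in all 3 comparisons with siCONTROL. The 3 endothelial markers summed to 0.36 to 0.63 CPM in siCONTROL, 0.83 to 1.38 after siKEAP1, 0 to 0.51 after siCCNF and 0.13 to 0.28 after both. Cdh5 among them was lower after both siRNAs (adjusted p = 0.032 by edgeR), with 0 to 3 counts against 5 to 7 in siCONTROL. After siKEAP1 its rise did not pass (log2 fold change 1.48, adjusted p = 0.0698 by edgeR). The 3 epithelial markers summed to 0.13 to 0.38 CPM in siCONTROL, 0.23 to 0.35 after siKEAP1, 0.70 to 1.17 after siCCNF and 0.92 to 2.09 after both, and Cdh1 (E-cadherin) among them rose after siCCNF and after both siRNAs (adjusted p = 0.00307 and 0.00044 by edgeR). The myoblast and differentiating muscle markers thus summed to less in every depleted group, as several genes described here were lower. The part of these and of the other marker lists in the results was not tested. In RNA from whole cultures, fewer cells at one stage of the cycle and less RNA per cell cannot be told apart.

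Cdc20 mRNA fell after each depletion, most after siCCNF. The gene (ENSMUSG00000006398) is protein-coding and lies on the minus strand of chr4:118432901-118437352 in GRCm38, the build of all coordinates here. In siCONTROL it was at 241, 212 and 208 CPM in replicates 1 to 3. After siKEAP1 the libraries gave 165, 167 and 161 CPM, after siCCNF 81.4, 89.0 and 80.8 CPM, and after both siRNAs 108, 108 and 110 CPM. The 4 groups did not overlap, and their order was siCONTROL, siKEAP1, siKEAP1/siCCNF and siCCNF from high to low. The siKEAP1 level was 74.7% of the control mean, that of siCCNF 38.0% and that of siKEAP1/siCCNF 49.4%. By the quasi-likelihood test of edgeR, adjusted over all genes by Benjamini and Hochberg, the log2 fold change was -0.42 ± 0.067 (SE) after siKEAP1 (adjusted p = 0.00022), -1.40 ± 0.068 after siCCNF (adjusted p = 9.12e-09) and -1.02 ± 0.067 after siKEAP1/siCCNF (adjusted p = 1.23e-07). A fall of more than 2-fold was passed by Cdc20 and by no other member. After siCCNF this was 1 of 10 members against 6.76% of all genes tested, and after siKEAP1/siCCNF 1 of 10 against 5.54%. Across all genes, 569 (3.76%) had a lower log2 fold change than Cdc20 after siCCNF. Without siCONTROL replicate 1, the highest Cdc20 library, the fall after siKEAP1/siCCNF was -0.96 and no longer over 2-fold (adjusted p = 2.95e-08 by edgeR).

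Fzr1, the G1 coactivator, fell in all 3 depletions, by less than Cdc20 after siCCNF. The gene (ENSMUSG00000020235) lies at chr10:81366222-81378516, on the minus strand. It was at 135, 126 and 127 CPM in siCONTROL, at 89.4, 93.9 and 95.7 after siKEAP1, at 98.7, 95.0 and 94.7 after siCCNF and at 98.8, 94.3 and 102 after both. Every depleted library lay below every siCONTROL library, while the 3 depleted groups overlapped each other. The log2 fold change against siCONTROL was -0.47 ± 0.058 (adjusted p = 2.79e-05), -0.42 ± 0.058 (adjusted p = 5.38e-05) and -0.39 ± 0.058 (adjusted p = 0.00012, all by edgeR) for siKEAP1, siCCNF and siKEAP1/siCCNF. The 3 comparisons share the siCONTROL libraries, so their likeness is not independent evidence. Fzr1 shares 4 exon bases with Mfsd12 on the other strand and Cdc20 shares 53 (2.84% of its exon bases) with Elovl1. The counting and its use of strand are not given in the sources used here. A processed pseudogene of Cdc20 in the table had 0 counts in every library.

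**Figure D1:**
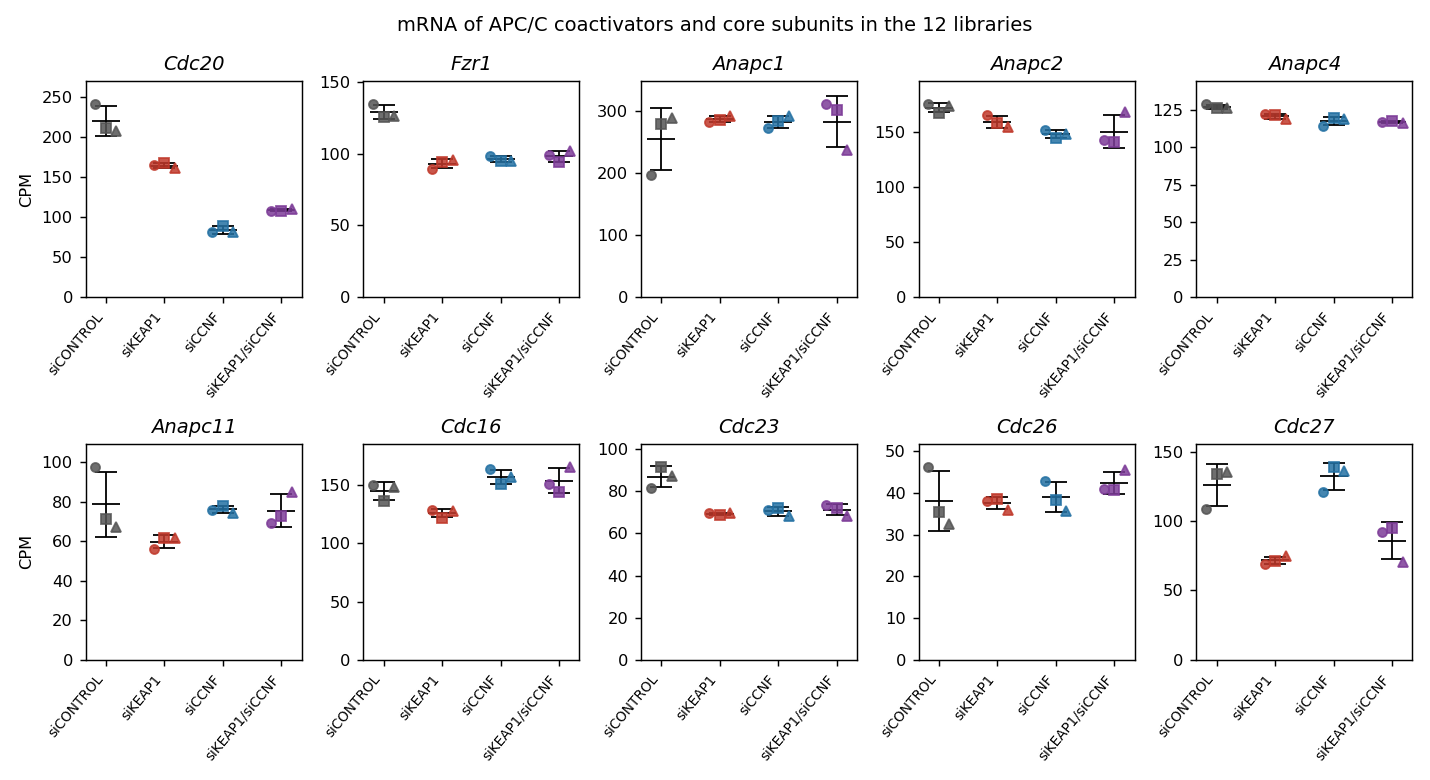
CPM (vertical axis, from 0) of each of the 10 members in the 12 libraries, by siRNA group; circles, squares and triangles are replicates 1, 2 and 3, and the black bars are the mean ± SD of 3 libraries. The 4 groups of Cdc20 are apart from each other, Fzr1 and Cdc23 are lower in all depleted groups, and Cdc27 is low in the 2 groups that received siKEAP1.

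The ratio of the coactivator mRNAs was lower in the groups with siCCNF. Per length, as FPKM, Cdc20 stood at 4.31, 4.05 and 3.95 times the level of Fzr1 in siCONTROL and at 4.44, 4.27 and 4.05 times after siKEAP1. The ratio was 1.98, 2.25 and 2.05 after siCCNF and 2.63, 2.75 and 2.60 after both siRNAs. Both groups with siCCNF lay below both groups without it, and siCONTROL and siKEAP1 overlapped. The means were 4.10 ± 0.19, 4.25 ± 0.20, 2.09 ± 0.14 and 2.66 ± 0.083 (SD, n = 3) for siCONTROL, siKEAP1, siCCNF and siKEAP1/siCCNF, given as a description without a test.

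**Figure D2:**
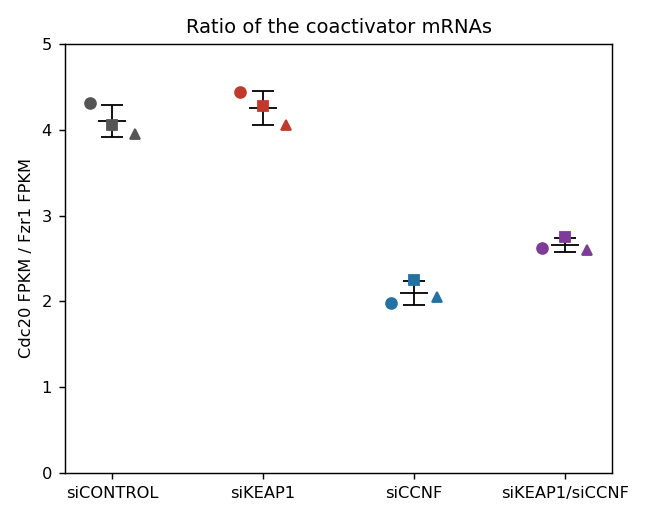
Ratio of Cdc20 FPKM to Fzr1 FPKM (vertical axis, from 0) in each library, by siRNA group, with circles, squares and triangles for replicates 1, 2 and 3 and black bars for the mean ± SD (n = 3). The libraries with siCCNF sit between 1.98 and 2.75, and those without it between 3.95 and 4.44.

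Cdc27, a scaffold subunit that takes part in binding coactivators, had the largest log2 fold change among the 8 core subunits of the set, and it was low in both groups with siKEAP1. The gene (ENSMUSG00000020687) lies at chr11:104502745-104550620, on the minus strand. It was at 109, 134 and 136 CPM in siCONTROL and at 121, 139 and 137 CPM after siCCNF. With siKEAP1 it was at 69.3, 71.4 and 74.7 CPM, and with both siRNAs at 92.3, 94.9 and 70.9 CPM. All 6 libraries with siKEAP1 were below all 6 without it. The lowest of the siKEAP1/siCCNF libraries was replicate 3 and the lowest of the siCONTROL libraries replicate 1, the 2 that stood apart by gene length. The log2 fold change was -0.81 ± 0.11 after siKEAP1 (adjusted p = 7.39e-05) and -0.55 ± 0.11 after siKEAP1/siCCNF (adjusted p = 0.00135, both by edgeR). After siCCNF it was 0.07 ± 0.11, which did not pass (adjusted p = 0.629 by edgeR).

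Cdc23, another scaffold subunit of the same arm of the complex, fell in all depleted groups. The gene (ENSMUSG00000024370) lies at chr18:34630951-34651735, on the minus strand. It was at 81.8, 91.6 and 87.3 CPM in siCONTROL, at 69.6, 68.7 and 69.8 after siKEAP1, at 71.3, 72.3 and 68.2 after siCCNF and at 73.4, 72.0 and 68.4 after both. No depleted library reached the lowest control library, and the 3 depleted groups overlapped each other. The log2 fold changes were -0.33 ± 0.061 (adjusted p = 0.00086), -0.30 ± 0.061 (adjusted p = 0.00127) and -0.29 ± 0.061 (adjusted p = 0.00195, all by edgeR) for siKEAP1, siCCNF and siKEAP1/siCCNF. Of the exon bases of Cdc23, 1271 (13.4%) overlap Kif20a, a mitotic kinesin gene on the other strand, and reads of the 2 genes cannot be told apart there without strand. Kif20a fell too, with log2 fold changes of -0.32, -0.75 and -0.48 in the same order. Its part in the Cdc23 values was not tested.

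Among the other core subunits of the set, no call against siCONTROL held under every alternative. Anapc2, the cullin-like subunit of the catalytic core, was at 175, 167 and 173 CPM in siCONTROL and 151, 145 and 148 after siCCNF, without overlap (log2 fold change -0.22 ± 0.070, adjusted p = 0.0214 by edgeR). After siKEAP1/siCCNF it was at 142, 140 and 168 CPM, which overlapped siCONTROL (-0.20 ± 0.070, adjusted p = 0.038 by edgeR). Without siKEAP1/siCCNF replicate 1 or 2, siKEAP1 replicate 3 or siCONTROL replicate 3 the latter call was lost, with adjusted p from 0.0514 to 0.138 by edgeR. It was lost in 2 further alternatives as well. The call after siCCNF was lost without siCONTROL replicate 3 or siCCNF replicate 2 or 3, with adjusted p from 0.0508 to 0.0731 by edgeR. It was also lost without the filter on low counts (adjusted p = 0.0581 by edgeR).

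Anapc11, the RING subunit that works with the E2 enzymes, was at 97.7, 71.4 and 67.4 CPM in siCONTROL and 56.3, 61.6 and 61.8 after siKEAP1 (log2 fold change -0.40 ± 0.12, adjusted p = 0.019 by edgeR). Replicate 1, one of the libraries that stood apart by gene length, was the highest control library, and without it the fall of Anapc11 was -0.22 (adjusted p = 0.0493 by edgeR), as it was without both libraries that stood apart (-0.22, adjusted p = 0.0045 by edgeR). Cdc16, a scaffold subunit, was at 151, 136 and 148 CPM in siCONTROL and 129, 122 and 128 after siKEAP1, without overlap (-0.20 ± 0.067, adjusted p = 0.0293 by edgeR). Neither call was firm. That of Anapc11 was lost without siKEAP1 replicate 1 (adjusted p = 0.0655 by edgeR), and that of Cdc16 without siCONTROL replicate 3 or siKEAP1 replicate 2 or 3 (adjusted p from 0.0646 to 0.0939 by edgeR). The call of Anapc11 was also lost in the fit of the compared libraries (adjusted p = 0.0561 by edgeR). That of Cdc16 was also lost without the filter on low counts (adjusted p = 0.0640 by edgeR).

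With all libraries, no call against siCONTROL was made for the remaining subunits of the set. Anapc1, the largest scaffold, was at 197 CPM in siCONTROL replicate 1 and at 278 and 289 in the other 2 control libraries, a spread that overlapped every depleted group. Its log2 fold changes were 0.17, 0.15 and 0.15 with an SE of 0.13. This control replicate 1 is among the libraries that stood apart by gene length. Without it the change of Anapc1 after siKEAP1 was 0.0046 (adjusted p = 0.975 by edgeR). After siKEAP1/siCCNF Anapc1 passed as higher in 1 of 22 alternatives. Anapc4, another scaffold subunit, lay between 126 and 129 CPM in siCONTROL and between 114 and 122 in all depleted libraries. These did not overlap, but the differences were small (-0.07, -0.12 and -0.12) and the lowest adjusted p was 0.0687 by edgeR. Anapc4 passed as lower in 5 of 22 alternatives after siCCNF and in 4 after siKEAP1/siCCNF, among them those without both libraries that stood apart (-0.11 in each, adjusted p = 0.0319 and 0.0436 by edgeR). Cdc26, a small subunit that binds Cdc16, lay between 32.6 and 46.3 CPM in all libraries, with log2 fold changes from -0.02 to 0.15. Without siCONTROL replicate 1, its highest library, Cdc26 rose after siKEAP1/siCCNF (0.31, adjusted p = 0.0132 by edgeR).

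Counted over the members, 6 of 10 fell after siKEAP1, against 20.2% of all genes tested, and 0 rose, against 20.4%. After siCCNF 4 of 10 fell, against 25.5% of all genes, and 0 rose, against 22.5%. After siKEAP1/siCCNF 5 of 10 fell, against 23.6%, and 0 rose, against 20.6%. Cdc20, Fzr1 and Cdc23 fell in all 3 comparisons, which share the siCONTROL libraries. Among the 8 core subunits 4, 2 and 3 fell. Their median log2 fold changes were -0.16, -0.0094 and -0.092, beside medians over all genes of -0.012, 0.013 and 0.014, for siKEAP1, siCCNF and siKEAP1/siCCNF. Without the 2 libraries that stood apart by gene length, 7 members passed in each of the 3 comparisons. The shares of all genes here and below are from all 12 libraries. Counts without the 2 libraries thus have no share beside them and are no result about the members. Then 7 fell after siKEAP1, 5 fell and 2 rose after siCCNF (Cdc16, log2 fold change 0.14, and Cdc26, 0.20), and 6 fell and 1 rose after siKEAP1/siCCNF (Cdc26, 0.26).

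**Figure D3:**
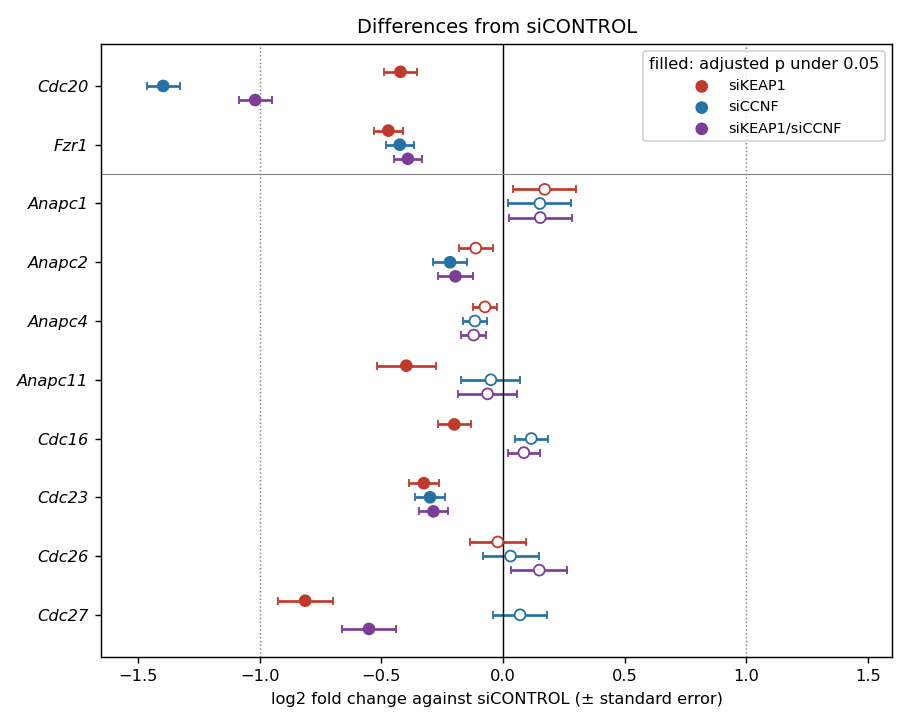
Log2 fold change against siCONTROL (horizontal axis, ± SE) of each member after siKEAP1, siCCNF and siKEAP1/siCCNF; filled points have an adjusted p under 0.05 by edgeR, the dotted lines mark 2-fold, and the grey line parts the coactivators from the core subunits. Cdc20 after siCCNF (-1.40) and after both siRNAs (-1.02) lies beyond 2-fold, and no core subunit of the set does.

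The double depletion was then compared with each single one, to see what each siRNA added. Keap1 itself was at 14.4% of the control level after siKEAP1 and at 27.5% after both siRNAs. This difference passed (log2 fold change 0.93, adjusted p = 1.07e-06 by edgeR), and its part in the comparison with siKEAP1 was not tested. Adding siCCNF to siKEAP1 lowered Cdc20 further (log2 fold change -0.60 ± 0.067, adjusted p = 8.64e-06 by edgeR) and left Fzr1 at 0.08 ± 0.058, which did not pass (adjusted p = 0.271 by edgeR). Fzr1 and Cdc23 each passed as higher in 1 of 22 alternatives, over which their log2 fold changes reached 0.19 and 0.18. In this comparison 1 of 10 members fell, against 26.9% of all genes, and 2 rose, against 24.1%. The 2 were Cdc16 (0.29 ± 0.067, adjusted p = 0.00303) and Anapc11 (0.33 ± 0.12, adjusted p = 0.035, both by edgeR). The groups did not overlap for either. The call of Anapc11 was lost without any one of the 3 siKEAP1 libraries or without siKEAP1/siCCNF replicate 3 (adjusted p from 0.0616 to 0.12 by edgeR). It was lost in 2 further alternatives as well. Without the 2 libraries that stood apart, 6 members passed, among them Cdc27, which rose by 0.39 (adjusted p = 2.29e-05 by edgeR), Anapc2, with -0.16, and Anapc1, which went from -0.02 to 0.10 (adjusted p = 0.0451 by edgeR). Cdc27 also passed without siCONTROL replicate 1 alone (0.27, adjusted p = 0.0295 by edgeR) or siKEAP1/siCCNF replicate 3 alone (0.39, adjusted p = 0.00479 by edgeR), and Anapc2 without the latter (-0.17, adjusted p = 0.0278 by edgeR).

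Cdc20 was higher and Cdc27 lower in the double depletion than after siCCNF alone. Ccnf itself was at 30% of the control level after both siRNAs and at 25% after siCCNF. This difference did not pass (log2 fold change 0.26, adjusted p = 0.0747 by edgeR), and its part in these results was not tested. For this comparison the log2 fold change of Cdc20 was 0.38 ± 0.067 (adjusted p = 0.00568) and that of Cdc27 -0.62 ± 0.11 (adjusted p = 0.00617, both by edgeR). Thus 1 of 10 members rose, against 3.00% of all genes tested, and 1 fell, against 2.19%. Both calls held without the 2 libraries that stood apart. Fzr1 (0.03 ± 0.058) and Cdc23 (0.01 ± 0.061) lay near 0 and did not pass.

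Whether siKEAP1 acted differently once CCNF was depleted was tested as an interaction, the log2 fold change by siKEAP1 with siCCNF minus that without it. For Cdc20 siKEAP1 lowered the mRNA in control cells (-0.42) and raised it in CCNF-depleted cells (0.38), a difference of 0.80 ± 0.095 (adjusted p = 8.41e-05 by edgeR). For Fzr1 the difference was 0.50 ± 0.082 (adjusted p = 0.00084) and for Cdc23 0.34 ± 0.087 (adjusted p = 0.0138, both by edgeR). In these 3 genes the fall in the double depletion was smaller than the sum of the falls after the single ones. Thus 3 of 10 members had a positive interaction, against 10.6% of all genes, and 0 a negative one, against 10.5%. For Cdc27 the difference was 0.19 ± 0.16 (adjusted p = 0.439 by edgeR), but 0.42 without the 2 libraries that stood apart (adjusted p = 0.00087 by edgeR). Anapc11 had 0.38 ± 0.17 and did not pass (adjusted p = 0.139 by edgeR). Keap1 itself stood at 14.4% of the control level after siKEAP1 and at 27.5% after both siRNAs. Ccnf stood at 25% after siCCNF and at 30% after both. The difference in Keap1 passed (log2 fold change 0.93, adjusted p = 1.07e-06) and that in Ccnf did not (0.26, adjusted p = 0.0747, both by edgeR). The part of these differences in the interactions was not tested.

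**Figure D4:**
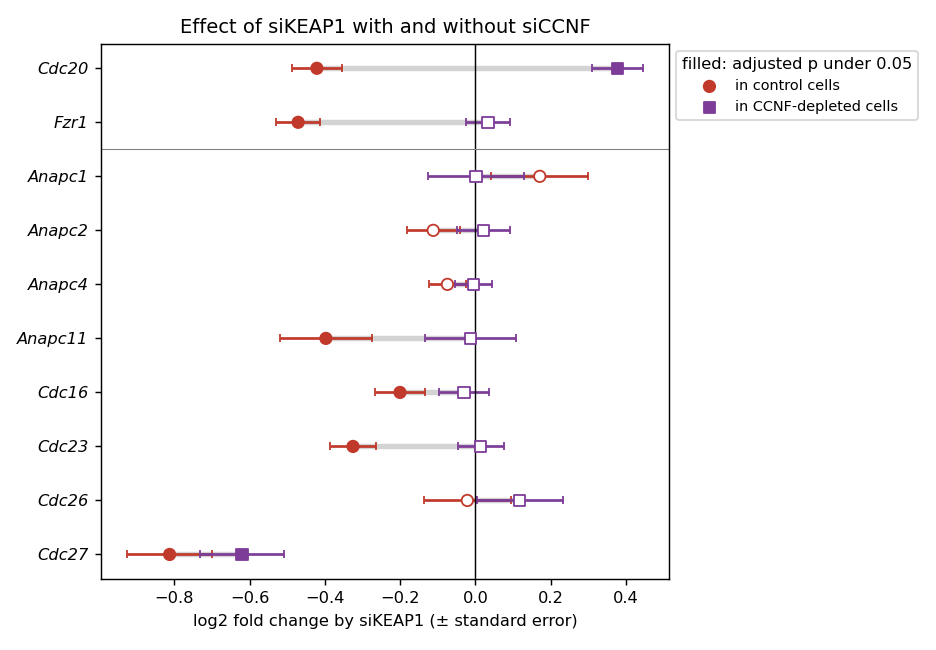
Log2 fold change by siKEAP1 (horizontal axis, ± SE) in control cells (circles, siKEAP1 against siCONTROL) and in CCNF-depleted cells (squares, siKEAP1/siCCNF against siCCNF) for each member; filled marks have an adjusted p under 0.05 by edgeR and grey bars join both values of a gene. Cdc20 goes from -0.42 to 0.38 and Fzr1 from -0.47 to 0.03, while both marks of Cdc27 stay below 0.

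Levels of different members were compared per length, as FPKM. In siCONTROL the order was Cdc20 (117 ± 9.84 FPKM), Anapc2 (49.5 ± 1.13), Cdc16 (46.4 ± 2.38), Fzr1 (28.5 ± 1.11), Anapc4 (20.7 ± 0.25), Cdc27 (20.0 ± 2.37), Anapc11 (15.5 ± 3.25), Anapc1 (15.1 ± 2.99), Cdc23 (9.08 ± 0.52) and Cdc26 (5.27 ± 1.00; SD, n = 3). Neighbors from Anapc4 to Anapc1 overlapped between libraries, and the other neighbors did not. After siCCNF Cdc16 came first (50.2 ± 2.19 FPKM), and Cdc20 (44.4 ± 2.36) overlapped Anapc2 (42.5 ± 1.13). The FPKM of a gene depends on the length set for it. For Anapc11 (5057 bases) and Cdc26 (7180 bases) this length joins the exons of all annotated transcripts. It does so too for Cdc20 (1868 bases), Fzr1 (4488) and Cdc23 (9500), and the longest was that of Anapc1 (16714).

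The genes around the complex were described by role. Of 6 other core subunits, 3 fell after siCCNF, against 25.5% of all genes, and 0 rose, against 22.5% (Anapc15, log2 fold change -1.01, Anapc5, -0.62, and Anapc13, -0.50), with a list median of -0.23 beside 0.013 over all genes. The 3 fell after both siRNAs as well (Anapc15, -1.08), against 23.6% of all genes. After siKEAP1 3 of the 6 fell, against 20.2%. Without the 2 libraries that stood apart, 2 fell and 3 rose after siCCNF, 3 fell and 1 rose after both siRNAs, and after siCCNF Anapc13 did not pass (-0.16, adjusted p = 0.153 by edgeR).

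The E2 enzymes pass ubiquitin to the substrates. All 3 fell after siCCNF, against 25.5% of all genes: Ube2c, which starts chains (-0.98), Ube2s, which lengthens them (-0.78), and Ube2d1 (-0.21, adjusted p = 0.0487 by edgeR). All 3 also fell after siKEAP1 (20.2% of all genes) and after both siRNAs (23.6%), and all 3 had a positive interaction (10.6%). Without the 2 libraries 2 of the 3 fell after siCCNF and 2 after both siRNAs, and after siCCNF Ube2d1 did not pass (-0.13, adjusted p = 0.129 by edgeR).

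Inhibitors of the APC/C and genes of the spindle checkpoint mostly fell. Of 10 tested, 9 fell after siCCNF, against 25.5% of all genes, led by the checkpoint kinases Ttk (-1.18) and Bub1 (-1.12), and Mad2l2 rose (0.44), against 22.5%. The median of the list was -0.67. After siKEAP1 7 fell, against 20.2% of all genes, and after both siRNAs 9 fell and 1 rose, against 23.6% and 20.6%. Without the 2 libraries that stood apart, 8 fell after siKEAP1, and 8 fell and 1 rose after both. The inhibitor Fbxo43 had at most 6 counts in a library and was not tested.

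Most substrates of the APC/C fell as well. After siCCNF 18 of 19 fell, against 25.5% of all genes, and 10 of them fell more than 2-fold, against 6.76%. The median of the list was -1.03. Among them were Gmnn, the inhibitor of replication licensing (-1.37), and Cdc6, the licensing factor (-1.34), while the phosphatase gene Cdc25a rose (0.28), against 22.5% of all genes. After siKEAP1 15 fell, against 20.2%, with a median of -0.48. After both siRNAs 18 fell and 1 rose, against 23.6% and 20.6%, with a median of -0.74, and 17 of the 19 had a positive interaction, against 10.6%. The counts after siCCNF of the checkpoint and substrate lists were the same without the 2 libraries that stood apart. These comparisons share the siCONTROL libraries, and a list is described here by its counts and median without a test of the list.

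**Figure D5:**
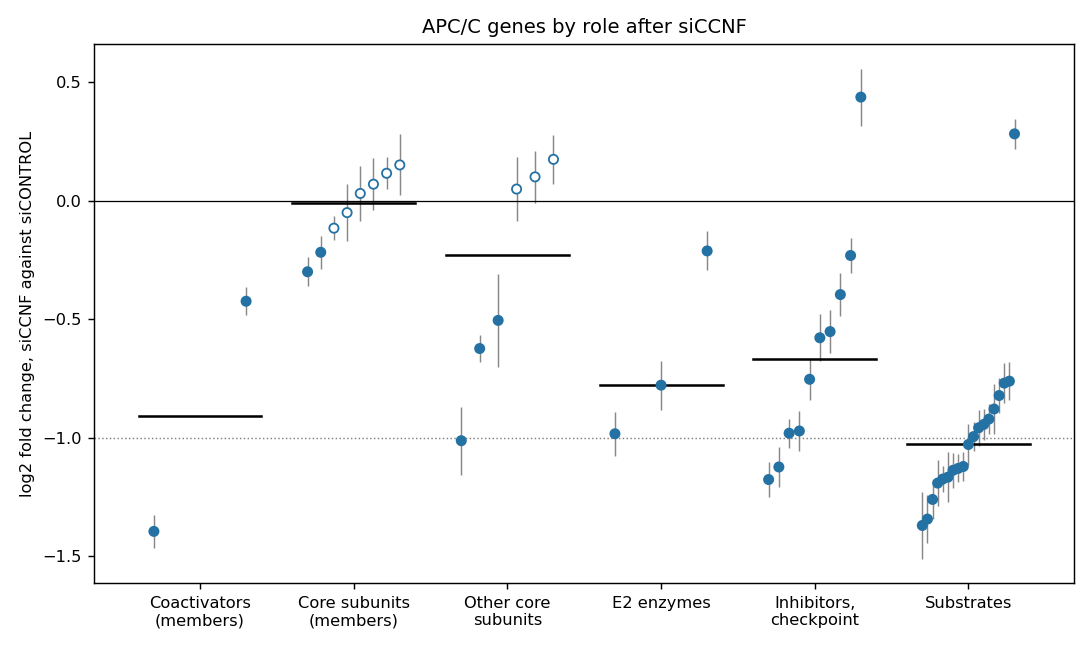
Log2 fold change of siCCNF against siCONTROL (vertical axis, ± SE) for genes grouped by role around the APC/C; each point is a gene, filled where the adjusted p is under 0.05 by edgeR, bold lines are list medians and the dotted line marks a 2-fold fall. The 8 core subunits of the set lie around 0 (median -0.0094), the 6 other core subunits have a median of -0.23 with Anapc15 at -1.01, substrates have a median of -1.03 and Cdc20 is the lowest coactivator point at -1.40.

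Likeness to the coactivators was measured by Pearson r of log2 CPM over the 12 libraries, among 11824 genes with a mean of at least 1 log2 CPM, as a description, since the libraries share groups. The genes most like Cdc20 were Fignl1 (r = 0.996), Tuba1c (0.995), H3f3b (0.994), Nek2 (0.992) and Jpt2 (0.992). They include the mitotic kinase gene Nek2 and the tubulin gene Tuba1c. The genes most like Fzr1 were Prkab1 (r = 0.987), Nde1 (0.984), Ptn (0.980), Myod1 (0.980) and Anxa6 (0.974), with Myod1 the myoblast transcription factor of the marker list. Among members, Cdc20 was most like Anapc4 (r = 0.88) and Fzr1 most like Cdc23 (r = 0.89), and the r between the coactivators was 0.67.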

How the data were processed

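The data are 12 RNA-seq libraries from C2C12 myoblasts, 3 in each of 4 siRNA groups. The authors deposited raw read counts per gene for 54532 genes, FPKM values made by their service provider, and their own group means, fold changes and p-values, which were not used. The submitters' notes name HISAT2 and GRCm39. The gene coordinates in the table are those of GRCm38 (98.3% of 54409 shared identifiers, all 10 members). The counting tool, annotation and use of strand are not given in the sources used here. The labels give 5% serum for growth and the study's methods give another amount. Which Ccnf siRNA was used, and whether 30 nM is the total in the double depletion, is not given.

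Counts were tested with edgeR 4.0.16 in R 4.3.3 after filterByExpr and TMM, by a quasi-likelihood model of 4 group means, with Benjamini-Hochberg adjustment over 15122 genes and calls at an adjusted p under 0.05. CPM values used TMM scaling and log2 CPM a prior count of 2. Alternatives were DESeq2 1.42.0, unscaled totals, other filters, a replicate block, limma 3.58.1 on log2(FPKM + 1) and log2(FPKM + 0.1), a fit of the compared libraries, removal of a gene length trend (spline with 5 degrees of freedom), and leaving out 1 or 2 libraries. The lists without 2 libraries were counted after seeing the data. Members and lists were chosen with earlier results of these data known. From each list the 2 called genes with the largest changes in each direction after siCCNF were named, or all in a list of 5 or fewer. Anapc13 and Mfsd12, Elovl1 and Kif20a fall outside this rule and were chosen after their values or positions were seen. Replicate pairs of a group differed by more than sampling noise (chi-square per degree of freedom 3.00 to 44.4). The code was tested on simulated data.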

Additional observations from a re-analysis of the deposited data

Results flagged for a closer look

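For 3 genes the effect of siKEAP1 differed between control and CCNF-depleted cells by a test of the difference itself, the interaction in edgeR's model. For Cdc20 the log2 fold change by siKEAP1 was -0.42 in control cells and 0.38 in CCNF-depleted cells, an interaction of 0.80 (adjusted p = 8.41e-05 by edgeR). For Fzr1 it was -0.47 and 0.03, an interaction of 0.50 (adjusted p = 0.00084 by edgeR). For Cdc23 it was -0.33 and 0.01, an interaction of 0.34 (adjusted p = 0.0138 by edgeR). The first 2 passed under each of 21 alternatives. That of Cdc23 did not pass without the filter on low counts (0.34, adjusted p = 0.0619 by edgeR), and Cdc23 shares exon bases with Kif20a. The part of the weaker depletion of Keap1 in the double depletion was not tested, nor was that of the difference in Ccnf, which did not pass.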

How the results depend on the processing

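Of 1310 values of members under alternatives, 1208 kept their direction and their side of the threshold. In the same direction, 28 passed newly and 23 lost their call. The other 51 changed sign, and those of them that passed are not among the 28. Calls of Cdc20, Fzr1, Cdc23 and Cdc27 against siCONTROL, of Cdc16 and Cdc20 against siKEAP1 and of Cdc20 and Cdc27 against siCCNF were lost under none of 22 alternatives. Without both libraries that stood apart by gene length, 7 members passed after siCCNF in place of 4, and 6 in place of 3 for siKEAP1/siCCNF against siKEAP1. For the latter, 7 passed with the gene length trend removed. No share of all genes stands beside these counts. Leaving out 1 library gave 5 to 6 members for siKEAP1, 3 to 4 for siCCNF, 4 to 6 for siKEAP1/siCCNF, 2 to 4 against siKEAP1, 2 against siCCNF and 3 for the interaction. Another scaling moved the median of all genes by at most 0.03.

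Replicate numbers are shared between groups. Deviations of libraries with the same number had r from -0.27 to 0.20 (median 0.041, over 0.1 in 4 of 18 pairs). Pairs with different numbers had r from -0.28 to 0.39 (median -0.0054, over 0.1 in 5 of 36 pairs). Of 12 libraries, 6 correlated best with their own number. These values do not settle whether libraries of the same number belong together. With a replicate block 6, 4, 5, 2, 2 and 3 members passed in the order above. Among member calls it changed that of Anapc11 for siKEAP1/siCCNF against siKEAP1 (0.33, adjusted p = 0.0546 by edgeR).

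All values that changed sign belonged to differences that had not passed. After siKEAP1, Cdc26 was 0.0021 by limma on log2(FPKM + 0.1), 0.13 without both libraries and -0.13 to 0.13 without 1. After siCCNF, values without both were -0.0044 for Anapc1, 0.14 for Anapc11 and -0.026 for Cdc27, and without 1 library -0.0045 to 0.25, -0.15 to 0.14 and -0.026 to 0.13, with -0.071 to 0.20 for Cdc26. After siKEAP1/siCCNF, Anapc11 was 0.026 without both and -0.17 to 0.11 without 1, and Anapc1 -0.010 to 0.26 without 1. Against siKEAP1, removal of the length trend gave 0.14 for Anapc1 (adjusted p = 0.0192 by edgeR), 0.0046 for Anapc2 and 0.075 for Anapc4, and Anapc1 was 0.10 without both and -0.088 to 0.10 without 1. Against siCCNF, unscaled totals gave 0.025 for Anapc4 and 0.016 for Anapc11. Anapc1 was -0.0056 without the filter, -0.0036 and -0.0043 by limma with a pseudocount of 1 and 0.1, -0.0039 in the fit of the compared libraries and -0.071 to 0.11 without 1. The length trend removed gave -0.012 for Anapc2 and 0.0012 for Anapc4, and Anapc2 was -0.071 without both. Without 1 library the ranges were -0.071 to 0.059 for Anapc2, -0.020 to 0.037 for Cdc23, -0.11 to 0.046 for Anapc11 and -0.093 to 0.0025 for Cdc16. The interaction of Anapc1 was 0.061 with the trend removed and 0.11 without both, and that of Cdc26 -0.073 without both and -0.023 to 0.24 without 1. The cause was not tested. With 3 libraries a group the SE against siCONTROL was largest for Anapc1 (0.13) and Anapc11 (0.12), and differences of that size were not detectable in them.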
